A study of Mus musculus with 6 samples.

Results

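The immediate early genes Nr4a1, Nr4a2, Nr4a3, Fos, Fosb, Jun, Junb, Egr1, Egr2 and Ier2 were followed in myoblasts of mdx mice that received the Gpr18 agonist PSB-KD107 or vehicle. They were taken by symbol from the deposited table of raw counts, in which all 10 were found among 47069 genes, and all 10 passed the default low-count filter of edgeR together with 14165 genes in all. The list was set by name, with earlier results of these data known. Levels are given below as CPM, the count of a gene scaled to the TMM-adjusted size of its library, and differences as log2 fold changes of PSB-KD107 over vehicle with their standard error (SE).

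Immediate early genes are transcribed within minutes of a signal, without new protein synthesis, and most of their transcripts are short-lived. Kinases of the ERK and p38 cascades and of the cyclic AMP pathway act on SRF with its ternary complex factors and on CREB, which are already bound at these genes. The Fos and Jun proteins then pair as the factor AP-1, Egr1 and Egr2 bind GC-rich sites through zinc fingers, and the Nr4a proteins are nuclear receptors that work without a classical ligand. In muscle cells these genes respond to mitogens, to contraction and to cell isolation itself, and Nr4a1 and Nr4a3 are known as regulators of muscle metabolism.

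The cells were muscle stem cells (the labelled cell type is satellite cells) of mdx mice, which lack dystrophin and model Duchenne muscular dystrophy. All cultures of both groups carried this mutation and grew as primary myoblasts in medium that the sample records give as holding 20% serum and FGF2. They had been sorted from muscle as positive for the integrins Itgb1 and Itga7 and negative for Sca-1, CD45, CD31 and CD11b. The groups were vehicle (3 libraries; DMSO in aqueous buffer by the paper's methods) and 10 μM PSB-KD107 (3 libraries), which the sample titles write as PSB-KD-1. The sample records give a treatment of 2 days, whereas the paper describes an overnight treatment of cells from 3 mice. Column names carry the numbers 1, 2 and 4 in either group where the records carry 1, 2 and 3, so that libraries with the same number were not treated as pairs.

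Total counts were between 30917613 and 48756794 per library, and 3 counts, the limit that a count of 0 allows, corresponded to between 0.0596 and 0.0962 CPM. These limits cover counting error only. The immediate early genes had between 17 and 9449 counts in a library. Gpr18, the receptor that PSB-KD107 activates, had 0 counts in all 6 libraries. Of 7 myoblast markers all were tested, with a summed level of 5888 to 6377 CPM in vehicle and 5827 to 5999 CPM in PSB-KD107 libraries. Of 7 markers of differentiated muscle 6 were in the table and tested, with sums of 28660 to 32110 CPM in vehicle and 22820 to 28330 CPM in PSB-KD107 libraries, and Myh3, the embryonic myosin, alone had between 11840 and 18260 CPM. Of 6 leukocyte markers, Ptprc and Adgre1 had at most 1 count in any library, and Csf1r and Lyz2 at most 4. Itgam, which encodes the sort marker CD11b, had between 14 and 166 counts. Cd68 had 193 counts in PSB-KD107 library 1 and 8 to 37 in the other 5. The list summed to 2.39 to 4.90 CPM in vehicle and 0.688 to 6.60 CPM in PSB-KD107 libraries. The 5 endothelial markers summed to 0.310 to 1.56 and 0.385 to 1.21 CPM. Of 6 fibroblast markers Lum had 0 counts, and the sums were 152.7 to 397.8 and 64.6 to 326.4 CPM, nearly all of it Col3a1. Ly6a, which encodes the sort marker Sca-1, had 8.36 CPM in PSB-KD107 library 4 and 0.155 to 1.29 CPM in the other 5. Libraries numbered 1 stood apart for the myogenic factor Myf5, with 3.57 CPM in vehicle library 1 and 4.23 CPM in PSB-KD107 library 1 against 18.6 to 40.9 CPM in the other 4. PSB-KD107 library 4 stood apart for the creatine kinase Ckm, with 817.6 CPM against 221.7 to 424.7 CPM in the other 5. In bulk RNA, fewer cells of a type and less RNA per cell cannot be told apart.

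Per length of transcript, the immediate early genes of vehicle-treated myoblasts spanned more than 2 orders of magnitude. On the FPKM scale (CPM per kilobase of exon), the mean vehicle level was 69.1 for Jun, 23.0 for Junb, 13.2 for Egr1, 9.48 for Ier2, 3.03 for Fos, 1.84 for Nr4a1, 1.33 for Nr4a2, 0.997 for Egr2, 0.335 for Fosb and 0.334 for Nr4a3. Jun was above Junb, Ier2 above Fos, and Fos above Nr4a1 in all vehicle libraries. The other neighbours in this order overlapped between libraries: Junb with Egr1, Egr1 with Ier2, Nr4a1 with Nr4a2, Nr4a2 with Egr2, Egr2 with Fosb, and Fosb with Nr4a3. With PSB-KD107 the mean levels were 50.1 FPKM for Jun, 26.4 for Junb, 12.4 for Egr1, 10.9 for Ier2, 4.21 for Nr4a1, 4.04 for Fos, 1.51 for Nr4a3, 1.45 for Nr4a2, 0.760 for Egr2 and 0.657 for Fosb. By its mean, Nr4a3 was thus last in vehicle, next to Fosb, and seventh with PSB-KD107. Both places were close, since in the PSB-KD107 libraries Nr4a3 (0.793 to 2.09 FPKM) overlapped with Nr4a2 (0.834 to 1.90 FPKM).

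Nr4a3 and Fosb had the smallest p-values, and Nr4a1 and Fos followed. The Jun and Egr genes and Ier2 showed no difference larger than the spread between libraries, where libraries were not paired. A fit with replicate blocks on the 4 libraries numbered 1 and 2 called Jun, Junb, Egr1 and Egr2 as lower. That fit leaves 1 residual degree of freedom, and blocks over all 6 libraries called 0 genes. Of the 10 genes 0 had an adjusted p-value under 0.05 in the quasi-likelihood test of edgeR, as did 0 (0%) of the 14165 genes tested, and the adjusted p-values of the 10 lay between 0.245 and 0.971. The unadjusted p-value was under 0.05 for 2 of them, Nr4a3 and Fosb, both higher with PSB-KD107, where 6.47% of all tested genes were higher and 2.93% lower at that threshold. DESeq2 called 1 of the 10, Nr4a3, at an adjusted p-value under 0.05, where it called 2.26% of its 13761 genes as higher. All treated libraries lay above all vehicle libraries for Nr4a3, Fos and Fosb, 3 of the 10, where 9.20% of tested genes were higher without overlap and 6.59% lower. For a single gene, the exact permutation test over 3 against 3 libraries cannot give a two-sided p-value below 0.1. Of the 10 log2 fold changes 7 were above 0 and 3 below, with a median of 0.20 against -0.00070 over all tested genes.

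**Figure D1:**
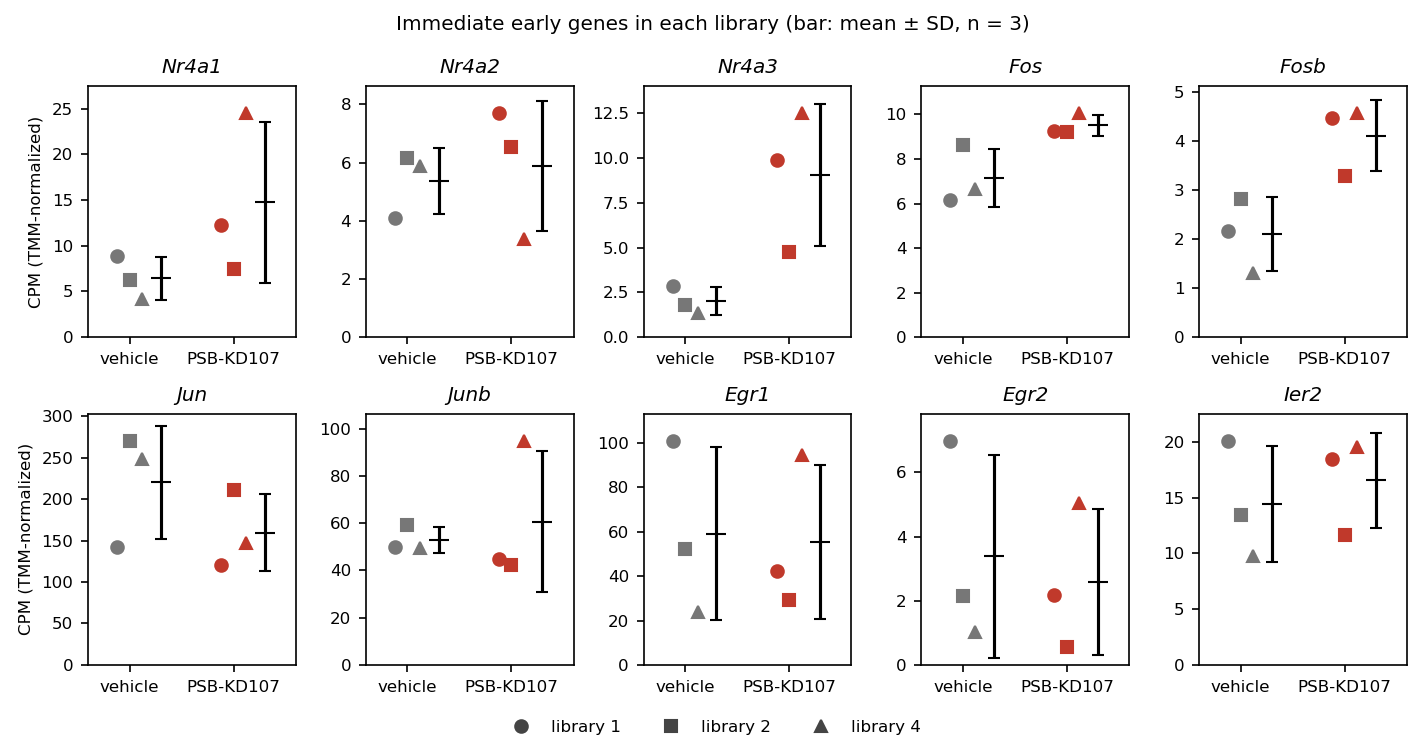
Level of each immediate early gene in CPM (vertical axes, linear from 0) in the 3 vehicle (grey) and 3 PSB-KD107 (red) libraries, with the library number given by the symbol and the mean ± SD of each group as a black bar. The red points lie above all grey points for Nr4a3, Fos and Fosb, and in the 7 other panels the groups overlap.

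Nr4a3 (ENSMUSG00000028341, also known as NOR-1, chromosome 4 from 48045153 to 48086447 in GRCm38), a nuclear receptor induced in muscle by exercise, had the largest fold change of the 10 genes. It had 112, 63 and 43 counts in vehicle libraries 1, 2 and 4, which are 2.86, 1.80 and 1.33 CPM. With PSB-KD107 it had 499, 148 and 455 counts, which are 9.92, 4.75 and 12.5 CPM. Even the lowest treated library lay above the highest vehicle library. The mean went from 2.00 ± 0.780 to 9.06 ± 3.96 CPM (mean ± SD, n = 3), which is 4.52-fold, or 2.18 on the log2 scale (SE 0.47). The p-value of the edgeR test was 0.0032 before and 0.245 after adjustment, and the adjusted p-value of DESeq2 was 4.9e-04. When single libraries were left out the log2 fold change was between 1.87 and 2.52, the adjusted p-value of edgeR between 0.224 and 0.979, and that of DESeq2 between 5.0e-07 and 0.032.

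Nr4a1 (ENSMUSG00000023034, also known as Nur77, chromosome 15 from 101254269 to 101274795 in GRCm38) is the best studied nuclear receptor of the family and a regulator of macrophage and muscle genes. It had 349, 219 and 134 counts or 8.90, 6.27 and 4.16 CPM in the vehicle libraries, and 619, 233 and 892 counts or 12.3, 7.47 and 24.5 CPM with PSB-KD107. PSB-KD107 library 4 was the highest of all, and PSB-KD107 library 2 lay inside the vehicle range. PSB-KD107 over vehicle gave 1.20 on the log2 scale (SE 0.50, edgeR adjusted p = 0.540, DESeq2 adjusted p = 0.245). Without PSB-KD107 library 4 it was 0.62 (edgeR adjusted p = 0.723), and without PSB-KD107 library 2 it was 1.51, where DESeq2 called the gene (adjusted p = 0.031). A difference between the changes of Nr4a1 and Nr4a3 was not tested.

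Nr4a2 (ENSMUSG00000026826, also known as Nurr1, chromosome 2 from 57106830 to 57124003 in GRCm38) is known from dopamine neurons. It had 160, 215 and 190 counts or 4.08, 6.16 and 5.89 CPM in the vehicle libraries and 388, 204 and 123 counts or 7.71, 6.54 and 3.38 CPM in the PSB-KD107 libraries. The treated libraries held both the highest and the lowest of the 6 values, with PSB-KD107 library 4, the highest for its relatives, as the lowest. Its log2 fold change of 0.13 (SE 0.36, edgeR adjusted p = 0.928) was smaller than its error and was below 0 without vehicle library 1 (-0.041) or PSB-KD107 library 1 (-0.13).

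The makeup of the Nr4a family therefore differed between libraries. On the FPKM scale Nr4a3 made up 11.9%, 8.36% and 7.79% of the Nr4a transcripts in vehicle libraries 1, 2 and 4, and 23.5%, 17.5% and 21.1% in the PSB-KD107 libraries. The groups did not overlap for this share. Nr4a1 took between 41.4% and 63.1% in vehicle and between 47.0% and 70.5% in PSB-KD107 libraries, and Nr4a2 between 25.0% and 50.8% and between 8.41% and 35.6%. The groups overlapped for both of these shares. The sum of the family was 4.02, 3.61 and 2.86 FPKM in the vehicle libraries and 7.06, 4.54 and 9.92 FPKM in the PSB-KD107 libraries.

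**Figure D2:**
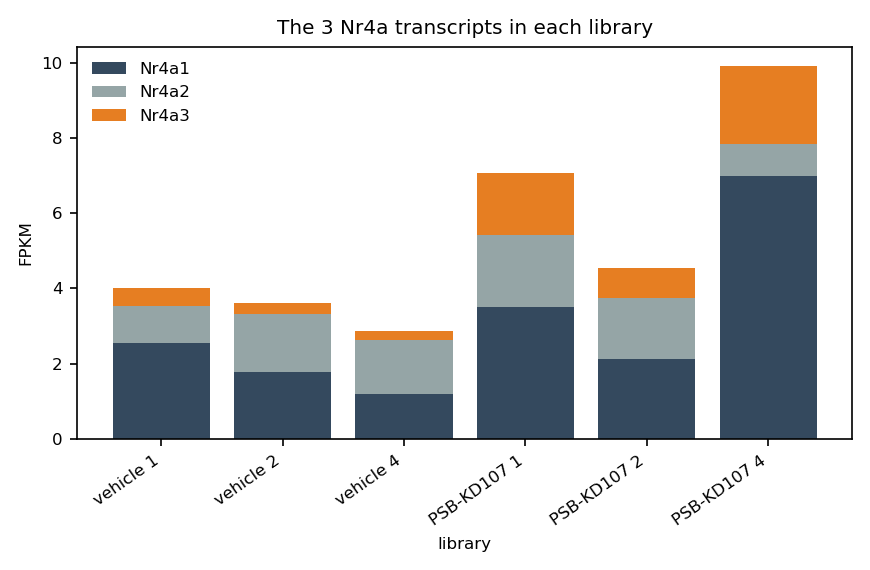
Stacked FPKM (vertical axis, linear from 0) of Nr4a1, Nr4a2 and Nr4a3 in each of the 6 libraries. The orange Nr4a3 segment is wider in every PSB-KD107 library (0.793 to 2.09 FPKM) than in any vehicle library (0.223 to 0.477 FPKM), while Nr4a2 is smallest in PSB-KD107 library 4 (0.834 FPKM).

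The stretches before the RefSeq start sites of the Nr4a genes and of Fos are shown because these genes are textbook targets of CREB, whose binding element holds the core TGACG. The stretches were chosen after the values of the genes had been seen. Sequences are from RefSeq promoter windows on GRCm38.p6, read 5′ to 3′ on the strand of the gene, with capitals for each TGACG or its complement CGTCA. The Nr4a3 stretch ends where the first exon of the gene in GENCODE M21 begins.
Nr4a1, chr15:101266596-101266845, plus strand: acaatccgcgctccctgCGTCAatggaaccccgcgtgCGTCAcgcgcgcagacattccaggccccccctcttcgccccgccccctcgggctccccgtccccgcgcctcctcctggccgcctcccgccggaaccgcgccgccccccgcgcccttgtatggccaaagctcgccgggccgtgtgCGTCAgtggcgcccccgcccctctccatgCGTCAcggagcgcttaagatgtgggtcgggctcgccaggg
Nr4a2, chr2:57124004-57124253, minus strand: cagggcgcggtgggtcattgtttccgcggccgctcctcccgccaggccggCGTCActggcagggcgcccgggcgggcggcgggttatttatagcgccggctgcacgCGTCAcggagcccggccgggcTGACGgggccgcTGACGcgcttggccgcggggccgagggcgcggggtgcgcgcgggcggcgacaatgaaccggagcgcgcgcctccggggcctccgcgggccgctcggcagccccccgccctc
Nr4a3, chr4:48045055-48045152, plus strand: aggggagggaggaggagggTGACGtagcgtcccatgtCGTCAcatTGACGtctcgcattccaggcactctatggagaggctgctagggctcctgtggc
Fos, chr12:85473640-85473889, plus strand: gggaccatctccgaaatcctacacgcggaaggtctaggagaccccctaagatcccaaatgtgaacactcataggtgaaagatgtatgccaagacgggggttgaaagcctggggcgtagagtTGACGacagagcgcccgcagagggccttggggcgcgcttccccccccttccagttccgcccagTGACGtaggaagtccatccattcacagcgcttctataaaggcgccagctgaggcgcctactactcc

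In the 250 bases before the start, searched on both strands, the core TGACG occurred 4 times in each of Nr4a1, Nr4a2 and Nr4a3 (3 of them in the printed stretch of Nr4a3) and 2 times in Fos. Over all 32851 RefSeq windows of this length, 17.8% held at least 1 core, 3.90% at least 2 and 0.137% at least 4. The windows behind these and the following shares were not matched to the genes for base composition. Fosb and Junb held 1 core each, Jun none, and 3 of the 5 windows of Egr2 held 2. The EGR site GCGNGGGCG was found before Nr4a1, Nr4a2 and Fosb, where 4.70% of windows held it. The full element TGACGTCA (1.55% of windows), the AP-1 site TGANTCA (6.75%) and the Nr4a site AAAGGTCA (1.34%) were found in none of the windows of these 3 genes or of Nr4a3, Fos, Jun, Junb and Egr2. The CArG box, the element of SRF, was found in 4 of the 5 windows of Egr2, where 3 overlapping windows share the same box, and in 1.47% of all windows. Egr1 and Ier2 were not scored for any of these sites. The matches describe letters and were not tied to binding.

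Fosb (ENSMUSG00000003545, chromosome 7 from 19302696 to 19310051 in GRCm38) encodes a Fos protein whose short form accumulates with repeated stimulation. It had 85, 98 and 42 counts or 2.17, 2.81 and 1.30 CPM in the vehicle libraries, and 225, 102 and 166 counts or 4.47, 3.27 and 4.57 CPM with PSB-KD107. All treated libraries lay above all vehicle libraries, with PSB-KD107 library 2 the closest to them. The mean was 2.09 ± 0.755 against 4.10 ± 0.722 CPM (mean ± SD, n = 3). The log2 fold change was 0.97 (SE 0.35), with a p-value of 0.031 before and 0.469 after adjustment in the edgeR test and an adjusted p-value of 0.169 in DESeq2. It stayed between 0.72 and 1.23 with each library left out.

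Fos (ENSMUSG00000021250, chromosome 12 from 85473890 to 85477273 in GRCm38), the partner of Jun in the classical AP-1 dimer, had 241, 301 and 214 counts or 6.15, 8.62 and 6.64 CPM in the vehicle libraries. With PSB-KD107 it had 465, 287 and 366 counts or 9.24, 9.21 and 10.1 CPM. The treated libraries were close to each other and lay just above the vehicle range. On the log2 scale the difference was 0.41 (SE 0.19, edgeR adjusted p = 0.587, DESeq2 adjusted p = 0.479), or 1.33-fold, and with each library left out it was between 0.31 and 0.56. Per length, Fosb made up 11.7%, 10.9% and 6.89% of the sum of Fos and Fosb in the vehicle libraries and 15.4%, 11.8% and 14.6% in the PSB-KD107 libraries.

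Jun (ENSMUSG00000052684, chromosome 4 from 95049034 to 95052222 in GRCm38) was the most abundant of the 10 genes. It had 142.5, 270.6 and 248.2 CPM in the vehicle libraries and 120.1, 211.5 and 147.4 CPM in the PSB-KD107 libraries. Vehicle library 1 fell among the treated values, so that the groups overlapped. On the log2 scale PSB-KD107 differed from vehicle by -0.47 (SE 0.31, edgeR adjusted p = 0.689), and it was between -0.73 and -0.30 with each library left out. Jun shares 232 bases of exon with the antisense gene Junos, which had between 33 and 78 counts in a library. Junos lies on the other strand. The library kit keeps strand, but whether reads were counted by strand is not given in the sources used here.

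Junb (ENSMUSG00000052837, chromosome 8 from 84974484 to 84978718 in GRCm38), a Jun protein that often restrains Jun and keeps muscle mass, had 50.1, 59.0 and 49.5 CPM in the vehicle libraries and 44.6, 42.3 and 94.9 CPM in the PSB-KD107 libraries. PSB-KD107 library 4 was the highest of all and the other treated libraries were below every vehicle library. Its log2 fold change of 0.20 (SE 0.33, edgeR adjusted p = 0.878) became -0.28 (adjusted p = 0.496) without PSB-KD107 library 4. Its exons share 173 bases with the abundant gene Prdx2 on the other strand, which had between 6983 and 10662 counts.

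Egr1 (ENSMUSG00000038418, chromosome 18 from 34859823 to 34864984 in GRCm38), a zinc finger factor downstream of ERK and SRF, had a wide range within each group. It had 3961, 1832 and 773 counts or 101.1, 52.5 and 24.0 CPM in the vehicle libraries and 2135, 913 and 3439 counts or 42.4, 29.3 and 94.6 CPM in the PSB-KD107 libraries. The highest vehicle library had 4.22 times the level of the lowest, and 6.26% of tested genes had a vehicle range at least as wide. Between the groups the log2 fold change was -0.09 (SE 0.63, edgeR adjusted p = 0.971). Its direction turned without vehicle library 1 (0.53), PSB-KD107 library 1 (0.05) or PSB-KD107 library 2 (0.20), and without PSB-KD107 library 4 it was -0.72.

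Egr2 (ENSMUSG00000037868, chromosome 10 from 67535475 to 67542188 in GRCm38), also a zinc finger factor and known from Schwann cells and lymphocytes, followed the same libraries at a lower level. It had 274, 75 and 33 counts or 6.99, 2.15 and 1.02 CPM in the vehicle libraries and 109, 17 and 183 counts or 2.17, 0.545 and 5.03 CPM in the PSB-KD107 libraries. Vehicle library 1 and PSB-KD107 library 4 were high and PSB-KD107 library 2 low. Its log2 fold change of -0.39 had the largest standard error of the 10 genes, 0.96 (edgeR adjusted p = 0.917), and 4.06% of tested genes had one at least as large. The value ranged from -1.31 without PSB-KD107 library 4 to 0.70 without vehicle library 1.

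Ier2 (ENSMUSG00000053560, chromosome 8 from 84661331 to 84662852 in GRCm38), a small nuclear protein of the early growth response, had 20.1, 13.4 and 9.77 CPM in the vehicle libraries and 18.5, 11.6 and 19.5 CPM in the PSB-KD107 libraries. No treated library left the vehicle range. The log2 fold change was 0.20 (SE 0.33, edgeR adjusted p = 0.877) and -0.020 without vehicle library 4.

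**Figure D3:**
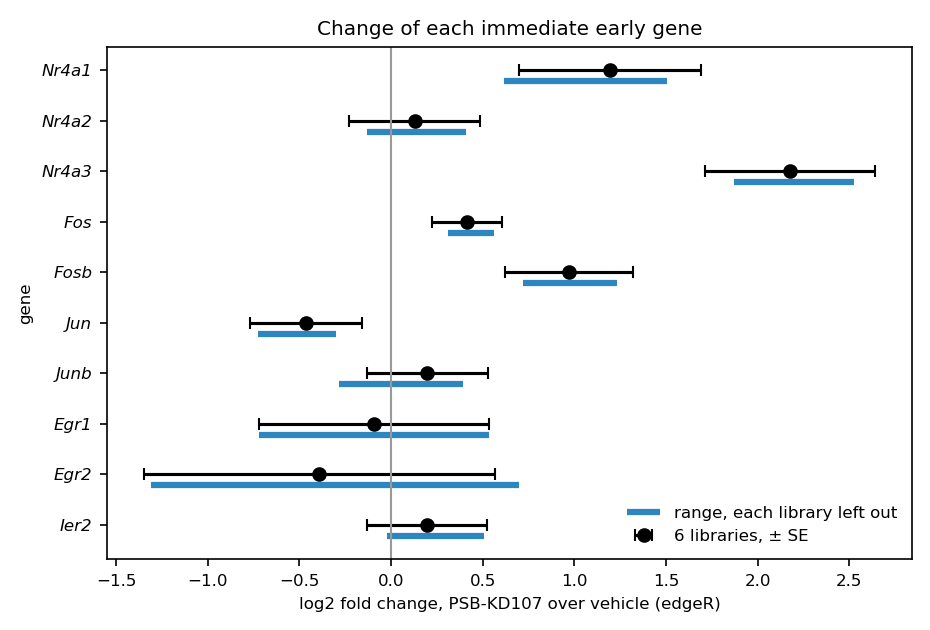
Log2 fold change of PSB-KD107 over vehicle for each gene (horizontal axis), with the edgeR estimate over 6 libraries ± standard error in black and the range with each library left out in turn in blue. Nr4a1, Nr4a3, Fos and Fosb stay above 0 and Jun below, and the blue bars of Nr4a2, Junb, Egr1, Egr2 and Ier2 cross 0.

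Taken alone, each PSB-KD107 library gave another picture. PSB-KD107 library 1 lay above the vehicle range in 5 of the 10 genes (all Nr4a and Fos genes) and below it in 2 (Jun and Junb), where 29.8% and 30.0% of tested genes did so. PSB-KD107 library 2 lay above in 4 (Nr4a2, Nr4a3, Fos and Fosb) and below in 2 (Junb and Egr2), against 27.5% and 23.0%. PSB-KD107 library 4 lay above in 5 (Nr4a1, Nr4a3, Fos, Fosb and Junb) and below in 1 (Nr4a2), against 33.8% and 32.8%. Relative to the vehicle mean, the log2 ratio of Nr4a3 was 2.31, 1.25 and 2.65 in PSB-KD107 libraries 1, 2 and 4, that of Nr4a1 was 0.93, 0.21 and 1.93, and that of Egr1 was -0.48, -1.01 and 0.68. The median over the 10 genes was 0.36, 0.08 and 0.62, and over all tested genes it was -0.02, -0.0056 and -0.02. Nr4a3, Fos and Fosb were the genes above the vehicle range in all 3.

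**Figure D4:**
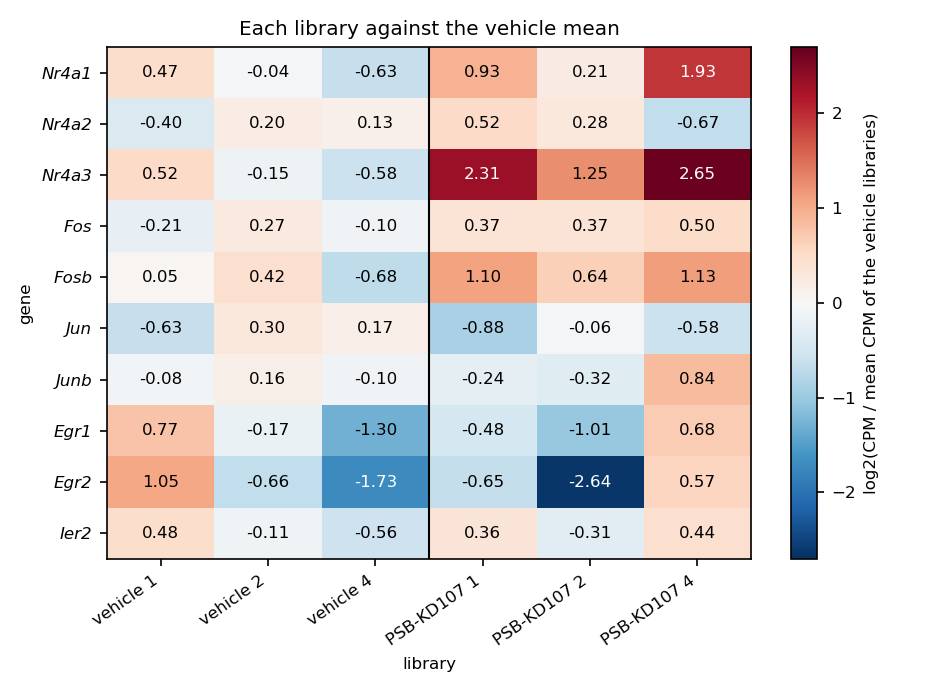
Log2 ratio of the CPM of each library (columns) to the mean of the 3 vehicle libraries, for each gene (rows), in red above and blue below 0. The Nr4a3 row is red in the 3 PSB-KD107 columns (2.31, 1.25 and 2.65), while Egr1 and Egr2 are highest in vehicle library 1 and PSB-KD107 library 4.

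Within the groups, Nr4a1, Nr4a3, Egr1, Egr2 and Ier2 ranked the libraries alike, with vehicle library 1 above 2 and 2 above 4, and PSB-KD107 library 4 above 1 and 1 above 2. Of all tested genes 10.1% showed this order. Fos, Fosb and Junb shared the order of the treated libraries only. Over the 6 libraries, which include both groups, the Pearson correlation of log2 CPM was 0.943 between Egr1 and Egr2, 0.916 between Nr4a1 and Nr4a3, and 0.898 between Nr4a3 and Fosb. It was -0.852 between Jun and Ier2 and -0.773 between Nr4a2 and Egr1. These values are descriptions over 6 libraries of both groups, which differ in treatment and depth. Among the genes whose pattern was most like the mean of the 10 were Mir31 (r = 0.995, at most 0.880 CPM and in vehicle library 4 below 3 counts), Fam117b (0.989), Fgd6 (0.982) and Acbd4 (0.979). Most like Nr4a1 alone were Slc25a12 (r = 0.998), Cptp (0.996) and Mecom (0.996).

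Related genes were read from lists written by hand, with earlier results of these data known. Among 22 further immediate early genes, 16 were higher and 6 lower (median 0.26 on the log2 scale). An unadjusted p-value under 0.05 was found for 5, all higher, and DESeq2 called these 5 as well (2 to 5 of the list with each library left out). For these and Trib1 the treated libraries lay above all vehicle libraries. Of all tested genes, 6.47% were higher at an unadjusted p-value under 0.05 in edgeR and 9.20% were higher without overlap. DESeq2 called 2.26% of its 13761 genes as higher. The 5 were Ier3, a regulator of cell death, the Krüppel-like factors Klf4 and Klf6, the growth regulator Myc and the small Maf protein Maff. Ier3 went from 4.39 ± 1.10 to 17.7 ± 9.06 CPM, Klf4 from 39.7 ± 2.78 to 75.1 ± 9.03 CPM and Klf6 from 30.1 ± 2.00 to 74.7 ± 24.5 CPM. Myc went from 14.1 ± 0.240 to 23.8 ± 3.59 CPM and Maff from 6.64 ± 1.36 to 14.5 ± 3.48 CPM (mean ± SD, n = 3). In this order the log2 fold changes were 2.01, 0.92, 1.31, 0.76 and 1.13, with SE of 0.48, 0.12, 0.23, 0.15 and 0.26. The DESeq2 adjusted p-values were 0.0023, 8.1e-06, 3.1e-04, 0.0036 and 0.0070. Klf4 and Klf6 were called with each library left out. Without vehicle library 2 or 4 the calls of Ier3 (adjusted p = 0.055 and 0.086), Myc (0.090 and 0.067) and Maff (0.095 and 0.118) were lost, as were those of Ier3 (0.076) and Maff (0.093) without PSB-KD107 library 1. After adjustment 0 of the 22 passed in edgeR. Egr3, the relative of Egr1 and Egr2, had 8.11, 1.78 and 0.372 CPM in vehicle and 6.12, 0.834 and 12.4 CPM in PSB-KD107 libraries and overlapped.

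Among the partners of AP-1, 7 of 9 could be tested, and Atf3, a stress-induced factor that pairs with Jun, was the one with an unadjusted p-value under 0.05. It had 12.9, 15.8 and 14.2 CPM in the vehicle libraries and 50.9, 28.0 and 18.6 CPM with PSB-KD107, without overlap, or 1.19 on the log2 scale (SE 0.37, edgeR adjusted p = 0.414, DESeq2 adjusted p = 0.068). PSB-KD107 library 4, the highest for Nr4a1 and Nr4a3, was the lowest treated library for Atf3. The median of the 7 was 0.10, with 6 above 0 and 1 below.

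The genes that carry the signal to the immediate early genes were read against the 6.47% of all tested genes that were higher and the 2.93% that were lower at an unadjusted p-value under 0.05. Of 12 feedback genes of ERK and p38, which encode Dusp phosphatases and Sprouty and Spred proteins, 9 were higher and 3 lower (median 0.19). An unadjusted edgeR p-value under 0.05 was found for 0 of them, and DESeq2 called 0 (0 to 2 when single libraries were left out). The smallest p-value was that of Dusp4, with 37.4, 25.7 and 28.6 CPM in vehicle and 79.8, 31.6 and 52.5 CPM in PSB-KD107 libraries. Of 18 genes of the MAP kinase cascade 10 were higher and 8 lower (median 0.10), and 1 had an unadjusted p-value under 0.05. This gene, the kinase Rps6ka1, which phosphorylates CREB and SRF, had 7.63, 7.42 and 7.57 CPM in vehicle and 12.4, 13.6 and 8.42 CPM with PSB-KD107, or 0.61 on the log2 scale (SE 0.22, edgeR adjusted p = 0.467). Of SRF and its cofactors, 6 in all, 4 were higher and 2 lower (median 0.09), and the smallest p-value was that of Elk1, with a log2 fold change of 0.25 (SE 0.16). Phosphorylation of these proteins is not measured by RNA-seq.

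Of 12 genes around CREB, 6 were higher and 6 lower (median -0.0012). The coactivator Ppargc1a, a CREB target that drives mitochondrial genes, had 6.35, 10.1 and 7.07 CPM in the vehicle libraries and 17.8, 23.1 and 53.0 CPM in the PSB-KD107 libraries. The groups did not overlap, with PSB-KD107 library 4 the highest, and the log2 fold change was 2.00 (SE 0.46, edgeR adjusted p = 0.264, DESeq2 adjusted p = 0.0012). Without vehicle library 4 the DESeq2 call of Ppargc1a was lost (1.92, adjusted p = 0.057). The CREB coactivator Crtc1 had 42.5, 39.7 and 45.0 CPM against 31.1, 37.9 and 27.0 CPM, a log2 fold change of -0.41 (SE 0.15, edgeR adjusted p = 0.479). The corepressors Nab1 and Nab2 and the 3 RXR partners of the Nr4a receptors gave 2 higher and 3 lower (median -0.03), with Nab1 first by p-value (log2 fold change 0.42, SE 0.22).

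Heat shock genes often rise with immediate early genes when muscle cells are handled, and were read beside them. Of 7, 2 were higher and 5 lower (median -0.03), and 0 passed an unadjusted threshold of 0.05 in edgeR or an adjusted one in DESeq2. Hspa1a, first by p-value, had 3.55, 4.58 and 4.41 CPM in vehicle and 5.17, 7.12 and 5.39 CPM in PSB-KD107 libraries, without overlap. The summed level of the list was between 2642 and 2853 CPM in vehicle and between 2503 and 2780 CPM in PSB-KD107 libraries. Among the myoblast markers, Pax7, the satellite cell factor, had 68.8, 49.9 and 60.0 CPM in vehicle and 34.0, 26.8 and 35.1 CPM in PSB-KD107 libraries (log2 fold change -0.90, SE 0.17, edgeR adjusted p = 0.209, DESeq2 adjusted p = 0.0018), and the DESeq2 call of Pax7 was lost without vehicle library 4 (adjusted p = 0.058). Of the 7 myoblast markers, 2 were higher and 5 lower (median log2 fold change -0.11). Myog, the factor of differentiating myoblasts, had 2042, 2203 and 2158 CPM against 1175, 1726 and 1661 CPM (edgeR adjusted p = 0.469, DESeq2 adjusted p = 0.203). Myh3 had 17160 to 18260 CPM against 11840 to 14590 CPM (edgeR adjusted p = 0.492, DESeq2 adjusted p = 0.031). Myog and Myh3 were the 2 lower of the 6 tested markers of differentiated muscle. The other 4 were higher, and the median of the 6 was 0.0071. The DESeq2 call of Myh3 was lost without vehicle library 1, 2 or 4 or PSB-KD107 library 1 (adjusted p from 0.083 to 0.292). The part of the lower Pax7, Myog and Myh3, and of the high Ckm of PSB-KD107 library 4, in the values of the immediate early genes was not tested.

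**Figure D5:**
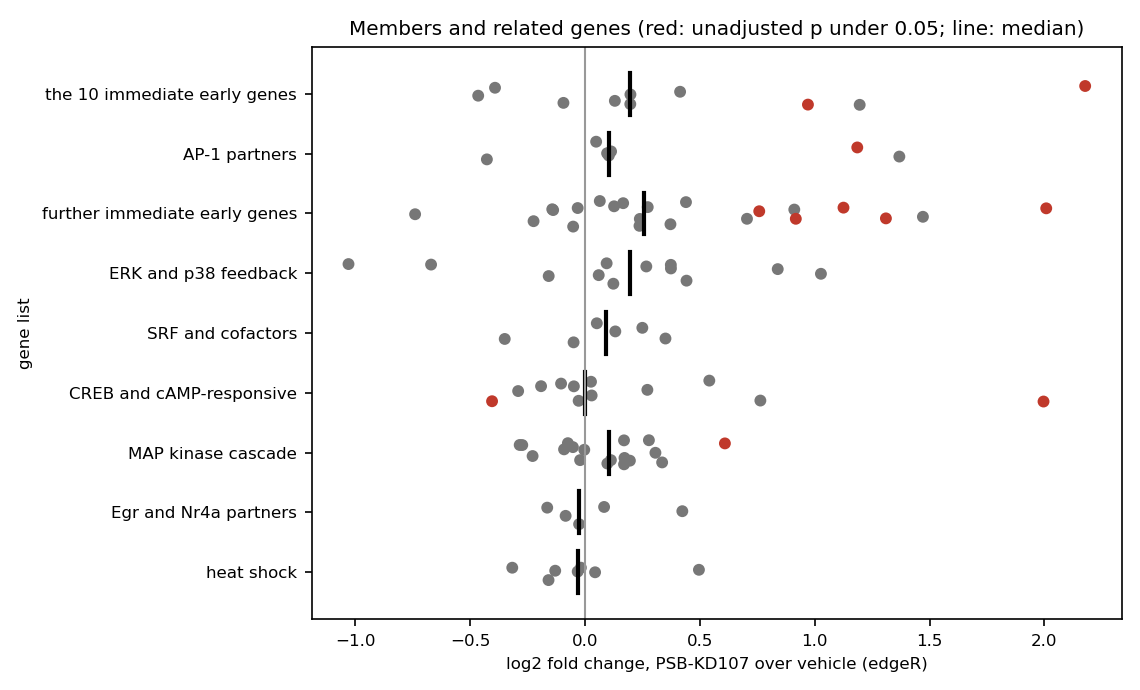
Log2 fold change of PSB-KD107 over vehicle (horizontal axis, edgeR) for the 10 immediate early genes and 8 lists of related genes (rows), 1 point per tested gene, red at an unadjusted p-value under 0.05, with the median of each list as a black line. The red points are Nr4a3 and Fosb in the first row, 5 further immediate early genes between 0.76 and 2.01, Atf3, Ppargc1a, Crtc1 and Rps6ka1, and the medians lie between -0.03 and 0.26.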

How the data were processed

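Poly(A)-selected RNA of 3 vehicle and 3 PSB-KD107 cultures was made into strand-keeping libraries and sequenced from both ends. The authors aligned the reads with STAR to the mouse genome (mm10 per the labels) and deposited raw counts per gene. The counting program, its annotation and its use of strand are not given in the sources used here. Columns were assigned to groups by their names, and the libraries numbered 4 to no single sample record. Positions and exon lengths came from GENCODE M21 (GRCm38), which holds 46574 of the 47069 identifiers.

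Genes were filtered with filterByExpr, scaled with TMM (factors 0.974 to 1.03) and tested across all 14165 kept genes with edgeR's quasi-likelihood test (edgeR 4.0.16, limma 3.58.1, DESeq2 1.42.0, R 4.3.3, Python 3.11.15) and Benjamini-Hochberg adjustment at 0.05. DESeq2 was run on all genes with a count. Standard errors follow from the fold change and its F statistic. P-values of edgeR and DESeq2 set the group difference against the spread between these libraries only, with dispersions moderated across genes. Permutation tests were exact and two-sided. Correlations used log2(CPM + 0.1). The scripts were tested on simulated data. Alternatives were RLE factors, no low-count filter, DESeq2, limma-voom, each library left out, and replicate blocks. DESeq2 with each library left out was added after seeing the data.

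The members, lists and tests were chosen with earlier results of these data known. The genes named were the 10 members, in each list those at an unadjusted p-value under 0.05 or else the one with the smallest p-value, the genes most correlated with the members or with Nr4a1, Gpr18 and cell type markers. Egr3 and Trib1 were added after their values were seen. Of the genes most correlated with the members, 1 is not reported here.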

Additional observations from a re-analysis of the deposited data

How the results depend on the processing

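The number of genes called at an adjusted p-value under 0.05, 0 of 14165 in edgeR's quasi-likelihood test, was also 0 with RLE factors, limma-voom and each library left out, and 8 with no low-count filter, 410 with DESeq2 and 160 to 768 with DESeq2 and each library left out (602, 177 and 160 without vehicle library 1, 2 and 4, and 275, 768 and 674 without PSB-KD107 library 1, 2 and 4). The median log2 fold change of the 10 genes, 0.20, was between 0.17 and 0.52 with each library left out in edgeR, the highest without vehicle library 1, and between 0.17 and 0.52 in DESeq2. At this depth and with 3 libraries per group, the standard errors of the 10 genes were between 0.19 and 0.96.

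Libraries with the same number deviated alike for numbers 1 and 2 but not for 4. Deviations from the group means correlated over genes at 0.632 between the libraries numbered 1 and at 0.503 between those numbered 2. Between those numbered 4 the correlation was -0.130, while vehicle library 4 and PSB-KD107 library 2 correlated at 0.638. Vehicle library 1 and PSB-KD107 library 2 correlated at -0.698, and vehicle library 2 and PSB-KD107 library 1 at -0.511. Deviations from a group mean cancel within the group, so that these correlations depend on each other. The numbers are shared by the table and the records for 1 and 2 only. With the replicate block on these 4 libraries, which leaves 1 residual degree of freedom, 2456 genes were called. Nr4a3 (log2 fold change 1.62, adjusted p = 0.0020), Jun (-0.30), Egr1 (-1.06, adjusted p = 0.0010), Egr2 (-1.78, adjusted p = 0.0026) and Junb (-0.32, adjusted p = 0.049) were among them. Junb and Ier2 (-0.16, adjusted p = 0.345) reversed in this fit, and the median of the 10 genes was 0.090, the lowest of the 18 alternatives. With the block over all 6 libraries by table number, 0 genes were called.

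With each library left out in edgeR, the log2 fold change was between -0.13 and 0.41 for Nr4a2, -0.28 and 0.39 for Junb, -0.72 and 0.53 for Egr1, -1.31 and 0.70 for Egr2, and -0.020 and 0.51 for Ier2. With DESeq2 the ranges were -0.13 to 0.40, -0.30 to 0.40, -0.73 to 0.53, -1.32 to 0.70 and -0.028 to 0.50. Each of these 5 genes reversed in at least 1 of these fits. In DESeq2 the other reversals were -0.049 for Nr4a2 without vehicle library 1, 0.064 and 0.21 for Egr1 without PSB-KD107 library 1 and 2, and 0.085 for Egr2 without PSB-KD107 library 2. Nr4a1, Nr4a3, Fos, Fosb and Jun kept their direction in all 18 alternatives.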
